A study of Homo sapiens with 14 samples.

Results

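The Rab GTPases were taken as every gene of the count table whose symbol is RAB followed by a number and, where present, a letter and a further digit. That pattern matched 71 symbols, of which 8 annotated as pseudogenes were left out, so the family held 63 of the 62703 genes listed. RAB17 was kept, and proteins that act on Rabs were handled as a separate list. Of the 63 genes, 33 had enough counts to be tested, 25 had at least 1 count but were too low, and 5 (RAB7B, RAB41, RAB42, RAB43 and RAB44) had no count in any of the 14 libraries.

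Rab proteins are small GTPases that mark the membranes of the secretory and endocytic pathways. Exchange factors load them with GTP on a chosen membrane, where they recruit motors and tethers, and GTPase-activating proteins and GDP dissociation inhibitors return them to the cytosol. In epithelia such as that of the prostate gland, they guide recycling to the apical and basolateral surfaces and the release of secretory granules.

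RNA was sequenced from 3 human prostate cancer cell lines as 3′ tag libraries (BRB-seq), in which each read comes from the end of a transcript. The lines were LNCaP, 22Rv1 and PC3. Each line received either DMSO vehicle or 1.5 µM SEL120-34A, an inhibitor of CDK8 and CDK19, the kinases of the Mediator kinase module, for 3 days. LNCaP and 22Rv1 had 3 libraries in each arm, and PC3 had 1. All groups share RPMI-1640 medium with fetal bovine serum, and no genetic change separates treated from control cells. Each line stands for 1 tumour, so a difference between lines cannot be told apart from a difference in origin or culture. The study's methods describe its replicates as biological, and the labels number them without saying that they were separate cultures, so p-values measure the spread between these libraries.

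Totals ran from 246063 to 909176 counts per library, and those of the 3 treated 22Rv1 libraries from 246063 to 368778. A gene with no count could therefore still lie at up to 3.27 CPM (counts scaled to a common library size) in the deepest library or 12.9 CPM in the shallowest. Such floors and all intervals on counts cover counting error only. The labels were checked with marker genes. KLK3, which encodes prostate-specific antigen, had 523 to 885 counts in LNCaP DMSO libraries, 7 to 17 in 22Rv1 DMSO libraries and 7 in the PC3 DMSO library. VIM, which encodes the intermediate filament vimentin, had 1159 and 633 counts in PC3 and at most 34 elsewhere. Of the markers of other cell types, PTPRC was at 0 in all libraries, CD68 reached 1 count and PECAM1 reached 4, whereas COL1A1 had 85 and 49 counts in PC3 and at most 13 in the other lines.

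Promoter windows are shown for the members whose level rose in the average response of LNCaP and 22Rv1 described below. Each runs over the 250 bases before the start that RefSeq lists (GRCh38.p14), 5′ to 3′ along the gene, and bases that GENCODE annotates as untranslated exon were not printed. Capitals mark 3 motifs on either strand. The GC box was searched as GGGCGG. The CCAAT box carries its letters in its name. A further motif was searched as AGAACA. RAB40B is shown at chr17:82698699-82698948, RAB3B at chr1:51990701-51990950 and RAB5C at chr17:42155045-42155239, all on the minus strand.
RAB40B: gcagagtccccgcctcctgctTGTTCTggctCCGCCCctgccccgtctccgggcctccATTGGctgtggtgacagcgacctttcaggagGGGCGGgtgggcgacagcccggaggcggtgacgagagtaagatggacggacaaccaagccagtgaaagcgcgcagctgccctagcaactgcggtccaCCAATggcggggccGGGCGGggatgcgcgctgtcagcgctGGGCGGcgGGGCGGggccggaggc
RAB3B: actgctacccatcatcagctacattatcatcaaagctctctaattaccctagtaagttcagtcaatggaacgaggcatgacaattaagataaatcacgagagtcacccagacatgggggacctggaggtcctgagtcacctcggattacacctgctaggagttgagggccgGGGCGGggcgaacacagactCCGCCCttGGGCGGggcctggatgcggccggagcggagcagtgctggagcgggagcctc
RAB5C: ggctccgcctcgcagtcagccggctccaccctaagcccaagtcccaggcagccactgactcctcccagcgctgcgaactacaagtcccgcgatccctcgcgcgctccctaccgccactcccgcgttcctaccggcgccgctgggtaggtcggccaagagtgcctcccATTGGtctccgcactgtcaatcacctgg
The RAB40B window held 5 GC boxes, 2 CCAAT boxes and 1 AGAACA motif, and the RAB3B window held 3 GC boxes and no other motif. The whole RAB5C window had 1 CCAAT box and 2 GC boxes that share a base, both of them in the part not printed. The RAB17 window, chr2:237590735-237590984 on the minus strand, is annotated as untranslated exon of other RAB17 transcripts and is given by its features alone. It held none of the motifs, had a GC content of 52.8% and had 6 CpG sites. By contrast, GC content was 71.2% in the RAB40B window, 67.6% in that of RAB5C and 56.8% in that of RAB3B, with 24, 23 and 12 CpG sites.

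A RefSeq window was listed for 50 of the 63 members and for 30 of the 33 tested members, taking the first start listed for each gene. RAB1A, RAB2A, RAB12, RAB15, RAB20, RAB26, RAB33A, RAB33B, RAB36, RAB37, RAB38, RAB39B and RAB44 had no entry. GGGCGG lay in 78.0% of the 50 member windows and in 86.7% of the 30 of tested members, against 42.3% of all 27305 windows of the same length. All windows were not matched to those of members: median GC content was 58.0% over all, 64.8% over the 50 and 66.2% over the 30. The CCAAT box lay in 26.0% of member windows against 33.0% of all. AGAACA lay in 4 of the 50 member windows and in 12.4% of all windows. The E box, searched as CACGTG, lay in 10.0% of member windows against 6.49% of all. The TATA box, searched as TATAAA, lay in 4 of the 50 member windows, in 0 of the 30 windows of tested members and in 11.1% of all windows. Both strands were searched, and a match or its absence describes only the letters of the window.

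In DMSO, the most abundant Rabs came from several compartments. Because 3′ tag counts record transcript ends, levels are given in CPM and were not divided by gene length. The counts of all 63 members summed to 3175 ± 75.4 CPM in LNCaP (SD, n = 3), 2959 ± 96.8 CPM in 22Rv1 (n = 3) and 3434 CPM in the single PC3 library. A mean DMSO level of at least 10 CPM was reached by 37 members in LNCaP, 34 in 22Rv1 and 37 in PC3, and one of at least 100 CPM by 9, 11 and 11.

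**Figure D1:**
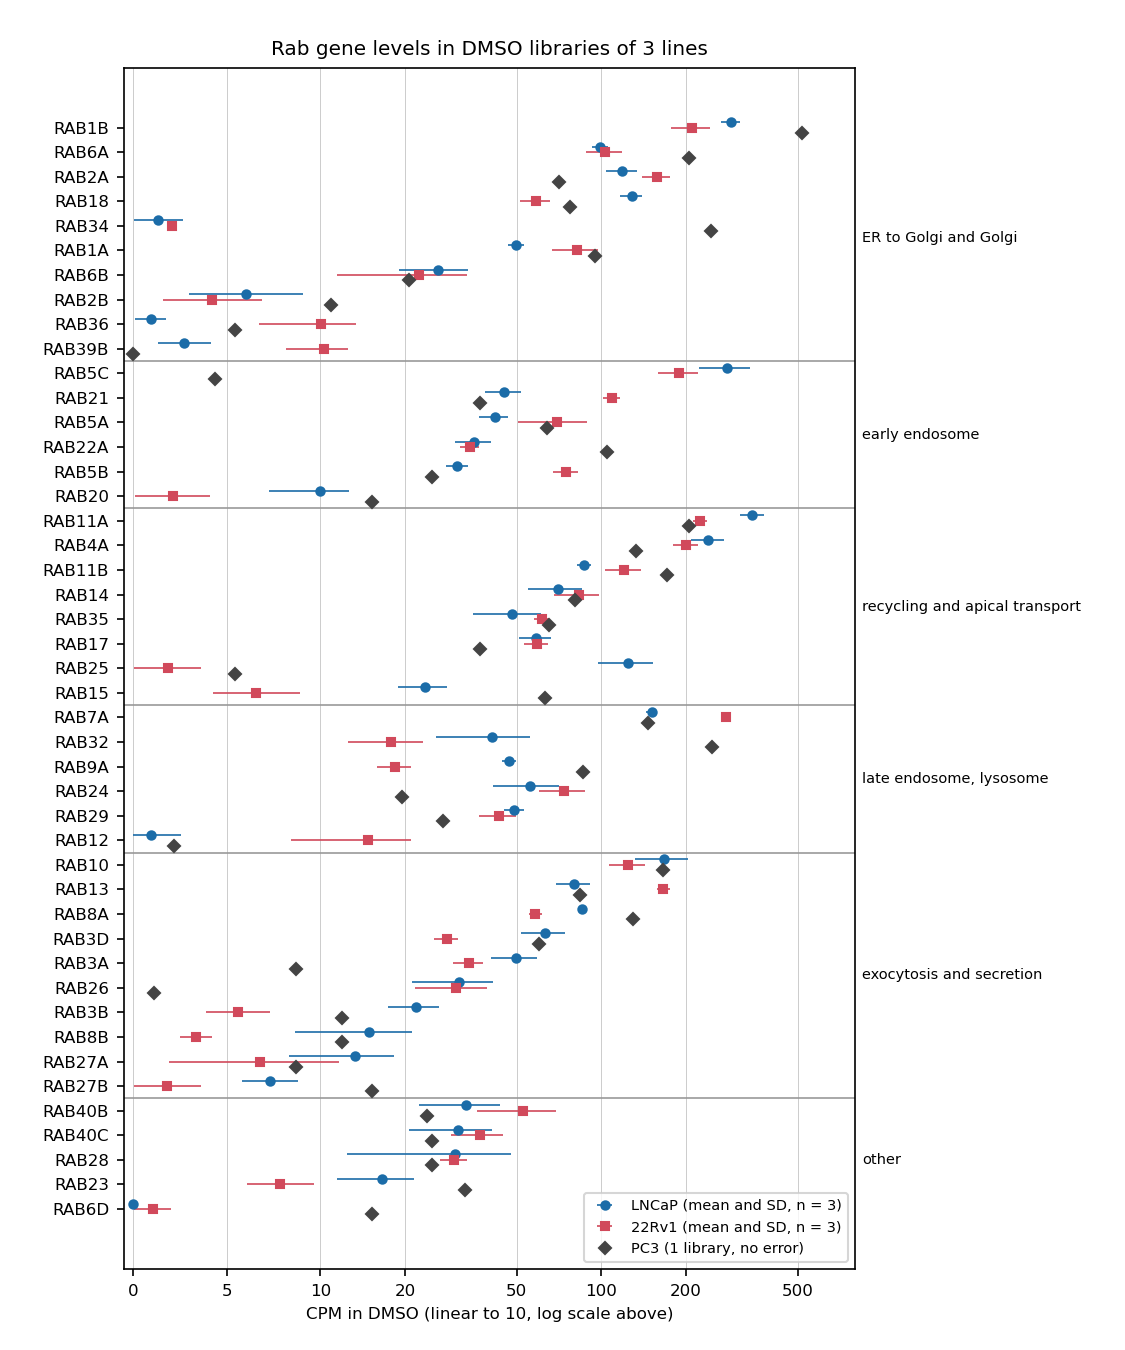
DMSO level in CPM (x axis, linear to 10 and log above) of the 45 Rab genes with a mean of at least 10 CPM in any of the lines, grouped by role. Circles (LNCaP) and squares (22Rv1) are means with SD of 3 libraries and diamonds are the PC3 library. RAB5C is near the left edge in PC3 and RAB34 near it in LNCaP and 22Rv1, while RAB25 is high in LNCaP.

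The 5 highest members held 41.6% of the family's CPM in LNCaP, 37.2% in 22Rv1 and 41.4% in PC3. RAB11A, the main Rab of the recycling endosome, and RAB1B, which acts in transport from the endoplasmic reticulum to the Golgi, were among the 5 in every line. RAB11A stood at 344 ± 33.7 CPM in LNCaP, 224 CPM in 22Rv1 (234, 210 and 230 CPM) and 205 CPM in PC3, and RAB1B at 289 ± 22.2, 210 ± 33.2 and 516 CPM. In LNCaP and 22Rv1 the list also held RAB5C of the early endosome and RAB4A of fast recycling. RAB10, which acts in exocytosis, completed it in LNCaP at 168 ± 35.3 CPM, and RAB7A, which governs late endosomes and lysosomes, led it in 22Rv1 at 277 ± 11.6 CPM. Neighbours in this order were close: in 22Rv1 the means of RAB11A, RAB1B, RAB4A (201 ± 20.5 CPM) and RAB5C (190 ± 30.7 CPM) lay within about 1 SD of the next. In PC3 the other three were RAB32, RAB34 and RAB6A, at 248, 246 and 206 CPM.

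Untreated LNCaP and 22Rv1 differed in 19 of the 33 tested Rabs at an adjusted p below 0.05 (edgeR quasi-likelihood test, Benjamini-Hochberg over all 7086 genes tested), 11 higher in LNCaP and 8 lower. Over all genes tested 49.0% were called, 24.0% higher in LNCaP and 25.0% lower, so the family's 57.6% lies near the share of genes at large. The libraries of the lines did not overlap for 19 members (57.6%), 11 higher in LNCaP and 8 lower, against 56.4% of all genes, 27.5% higher and 28.9% lower. The median log2 difference was 0.04 over members and −0.03 over all genes. With libraries scaled by their totals alone, these medians were −0.17 and −0.24.

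By far the widest gap was in RAB25, an epithelial relative of RAB11 that acts in apical recycling. Its DMSO libraries had 97.2, 152 and 126 CPM in LNCaP and 1.96, 0 and 3.58 CPM in 22Rv1, where the level rests on 1, 0 and 3 counts. The log2 difference was 5.69 (SE 0.39, adjusted p 1.01e-15), and it ran from 4.52 to 6.62 across the alternatives tried. PC3 resembled 22Rv1 in this gene, with 5.44 CPM in DMSO. RAB25 thus supplied 22.4% ± 4.42 of the LNCaP counts of RAB11A, RAB11B and RAB25, against 0.522% ± 0.523 in 22Rv1 (n = 3 each).

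Besides RAB25, the largest excesses in LNCaP were in RAB3B, RAB9A, RAB32, RAB3D and RAB18. RAB3B and RAB3D, which act in regulated exocytosis, were higher by 1.85 and 1.15 on the log2 scale (adjusted p 0.000937 and 0.000422). RAB9A, which returns receptors from late endosomes to the Golgi, was higher by 1.32 (adjusted p 0.000435). RAB32, known from melanosomes and other lysosome-related organelles, was higher by 1.15 (adjusted p 0.00786). Exons of RAB3D overlap TMEM205 on the same strand, where 6 to 103 counts per library were assigned, and reads from the overlap could fall to either gene. RAB18, which acts at lipid droplets and the endoplasmic reticulum, was higher by 1.12 (adjusted p 5e-06). RAB11A at 0.61, RAB8A at 0.56, RAB5C at 0.55, RAB1B at 0.46 and RAB10 at 0.39 made up the other calls in that direction.

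Of the 8 members lower in LNCaP, 3 belong to the early endosome (RAB5A, RAB5B and RAB21). That class had 5 tested members, and 1 of them, RAB5C, was called higher in LNCaP. RAB5B of the early endosome had 33.8, 28.8 and 29.4 CPM in LNCaP and 82.5, 67.4 and 75.1 CPM in 22Rv1, a log2 difference of −1.27 (adjusted p 5.61e-05). RAB21, which acts in integrin traffic, differed by −1.26 (adjusted p 3.85e-06) and RAB13, linked to tight junctions, by −1.02 (adjusted p 5.24e-06). No library of one line overlapped those of the other in these genes. RAB7A differed by −0.87 (adjusted p 1.98e-06), from 151 ± 6.39 CPM in LNCaP to 277 ± 11.6 CPM in 22Rv1, and RAB1A by −0.71 (adjusted p 0.00687). RAB5A at −0.69, RAB40B at −0.67 and RAB2A at −0.40 were the remaining calls.

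Of the 19 calls, 10 held under every alternative that could be fitted, namely RAB25, RAB3B, RAB9A, RAB18, RAB11A, RAB5B, RAB21, RAB13, RAB7A and RAB1A. The call for RAB3D ended in thinned libraries (adjusted p 0.0999) and that for RAB5C with library totals alone (0.0588). DESeq2 and limma each called 14 members rather than 19, and both ended the calls for RAB5A, RAB40B, RAB2A and RAB10. Leaving out LNCaP DMSO replicate 2 or 22Rv1 DMSO replicate 3 ended the call for RAB32 (adjusted p 0.0504 and 0.07). The RAB1B call ended with library totals alone (log2 difference 0.24, adjusted p 0.16) and without 22Rv1 DMSO replicate 1 (0.0602), and that for RAB5A without LNCaP DMSO replicate 2 (0.0547) or 22Rv1 DMSO replicate 2 (0.129). RAB8A lost its call without replicates 1 or 3 of either DMSO group (adjusted p 0.0516 to 0.085). RAB40B lost it without LNCaP DMSO replicates 2 or 3 or 22Rv1 DMSO replicates 1 or 3 (0.102 to 0.22). RAB2A lost it without LNCaP DMSO replicates 1 or 2, 22Rv1 DMSO replicates 1 or 3 or treated 22Rv1 replicate 1 (0.0525 to 0.171). For RAB10 this happened without LNCaP DMSO replicates 2 or 3, 22Rv1 DMSO replicates 1 or 2, treated LNCaP replicates 1 or 2 or treated 22Rv1 replicate 1 (0.0508 to 0.263).

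**Figure D2:**
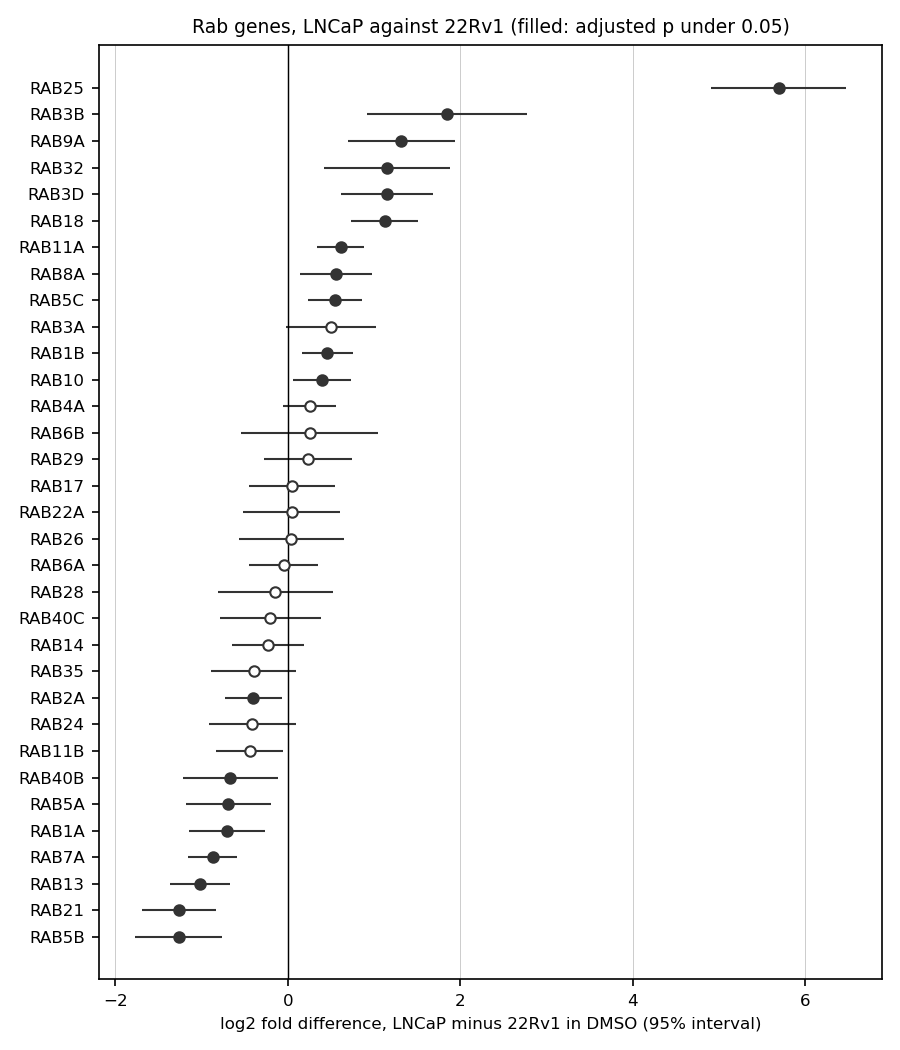
Log2 difference between DMSO-treated LNCaP and 22Rv1 (x axis, LNCaP minus 22Rv1, with 95% interval) for the 33 tested Rab genes, n = 3 libraries per line. Filled points passed an adjusted p of 0.05, and RAB25 at 5.69 lies far to the right of RAB3B at 1.85.

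RAB17, an epithelial Rab of transcytosis and apical recycling, was at almost the same DMSO level in both lines. It had 58.7 ± 7.75 CPM in LNCaP and 58.8 ± 5.60 CPM in 22Rv1, a log2 difference of 0.04 (95% interval −0.45 to 0.54) whose sign turned under several alternatives. The single PC3 DMSO library had 37.0 CPM (exact Poisson interval 25.6 to 51.7). Of the LNCaP and 22Rv1 DMSO libraries, that interval includes only LNCaP DMSO replicate 2, at 49.7 CPM. The other DMSO libraries of these lines and both means lie above it.

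The 3 RAB5 genes, whose products share the task of early endosome fusion, were used in different proportions by the lines. RAB5C made up 79.1% ± 4.55 of their counts in LNCaP DMSO libraries and 56.5% ± 5.27 in those of 22Rv1 (n = 3 each). In the PC3 DMSO library it made up 4.65% (4 of 86 counts, exact binomial interval 1.28% to 11.5%), and RAB5A made up 68.6%. RAB5C stood at 4.36 CPM in PC3 DMSO and 5.26 CPM after treatment, close to the floor of 3 counts, whereas the lowest library of the other lines had 165 CPM. Its overlapping genes ENSG00000267261 and RAB5C-AS1 had no count in any library.

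**Figure D3:**
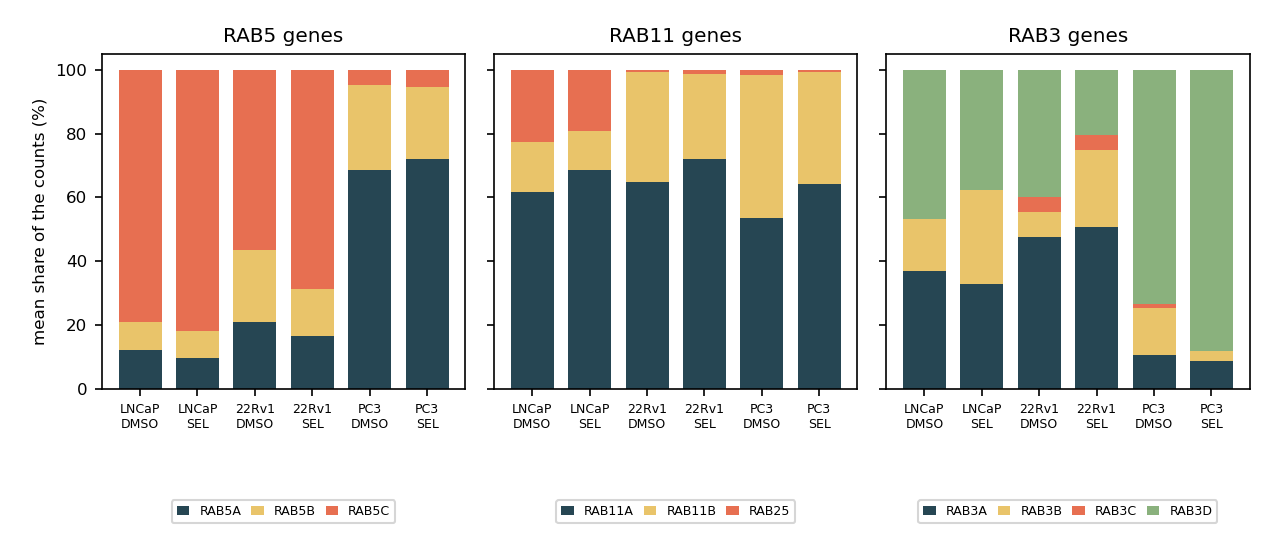
Mean share (%) of the counts of the RAB5, RAB11 and RAB3 genes taken by each member, by line and treatment (n = 3 libraries for LNCaP and 22Rv1, 1 for PC3). RAB5C takes 79.1% in LNCaP DMSO and 4.65% in PC3 DMSO, and RAB25 takes a visible share in LNCaP alone.

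RAB34, in contrast, was high in PC3 alone among these lines. This Golgi Rab acts in the positioning of lysosomes and in the growth of primary cilia. It had 226 and 106 counts in the PC3 DMSO and treated libraries (246 and 186 CPM) and 0 to 2 counts in each of the 12 other libraries. RAB32 was also high in PC3, at 248 and 307 CPM, and at most 61.2 CPM elsewhere. RAB15, a regulator of recycling, had 63.1 CPM in the PC3 DMSO library and 23.6 ± 4.67 CPM in LNCaP. RAB26 of the secretory granules had 1 count in the PC3 DMSO library, under the floor of 3, and 4 counts in the treated one (7.01 CPM), against 31.1 ± 9.90 CPM in LNCaP. With 1 library per arm, differences between PC3 and the other lines have no replicate check. Tags counted in bulk cannot tell fewer cells that express a Rab from less RNA per cell.

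Few Rabs passed the edgeR test after SEL120-34A. The members summed to 3194 ± 48.7 CPM in treated LNCaP and 3003 ± 51.5 CPM in treated 22Rv1 (n = 3), each within 1 SD of its DMSO mean. This depends on the scaling: with library totals alone the sum went from 2980 to 2873 CPM in LNCaP and from 3192 to 2960.0 CPM in 22Rv1. In LNCaP 1 of 33 members passed an adjusted p of 0.05, and it rose (3.03%, against 2.77% of all genes tested, 1.99% higher and 0.776% lower). In 22Rv1 3 members passed, all of them higher (9.09%, against 5.70% of all genes, 4.15% higher and 1.55% lower). In the average response of both lines 4 members passed, all higher (12.1%, against 6.01% of all genes, 3.88% higher and 2.13% lower). In the difference between the lines' responses 1 passed, more positive in LNCaP (3.03%, against 0.734% of all genes, 0.268% in that direction and 0.466% in the other). At an unadjusted p below 0.05 there were 8 members in LNCaP (24.2%, against 13.5%), 7 in 22Rv1 (21.2%, against 19.1%) and 10 in the average (30.3%, against 19.9%).

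No member was called lower in these comparisons by the main edgeR fit. At an unadjusted p below 0.05, 3 members in LNCaP, 3 in 22Rv1 and 5 in the average were lower. DESeq2 called none lower either, with 2, 2 and 2 at an unadjusted p below 0.05. limma on the deposited log2 values, with 37 members, called 1 lower in 22Rv1, RAB23, a Rab of primary cilia (log2 fold change −1.32, adjusted p 0.0457). RAB23 was too low for the main edgeR test, and edgeR with no filter on low counts did not call it. Its counts in 22Rv1 were 3, 5 and 7 in DMSO and 0, 0 and 1 after treatment, so all treated libraries lay under the floor of 3 counts. limma called none lower in LNCaP or in the average, with 3 and 6 at an unadjusted p below 0.05. In LNCaP, where edgeR called RAB17 higher, neither DESeq2 nor limma called any member. When libraries were scaled by their totals alone, the median of all genes moved to −0.14 in 22Rv1, −0.08 in LNCaP and −0.12 in the average. The average response then had 4 members called higher and 3 called lower, namely RAB1B, RAB11B and RAB4A. Under the same scaling RAB1B was called lower in LNCaP (−0.55, adjusted p 0.0465), where RAB17 was not called (0.0675). In 22Rv1 RAB7A was called lower (−0.47, adjusted p 0.0453) and RAB5C was not called (0.0746). Some edgeR alternatives that did not change the scaling method also called members lower, as given below.

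Most tested members moved little. The median log2 fold change over the 33 members was 0.05 in LNCaP and −0.09 in 22Rv1, beside 0.0008 and 0.0025 over all genes. It was above 0 for 18 members in LNCaP (54.5%, against 50.1% of all genes) and 14 in 22Rv1 (42.4%, against 50.3%). The treated and DMSO libraries did not overlap for 9 members in LNCaP (27.3%, against 19.4% of all genes), 4 of them higher (8.76% of all genes) and 5 lower (10.7%). In 22Rv1 they did not overlap for 9 members (27.3%, against 23.0%), 5 higher (12.4%) and 4 lower (10.5%). The 95% interval of the fold change lay within 1 log2 unit of 0 for 24 members in LNCaP (72.7%, against 63.3%) and for 23 in 22Rv1 (69.7%, against 59.0%). For the others a 2-fold change in either line could not be set aside at this depth.

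**Figure D4:**
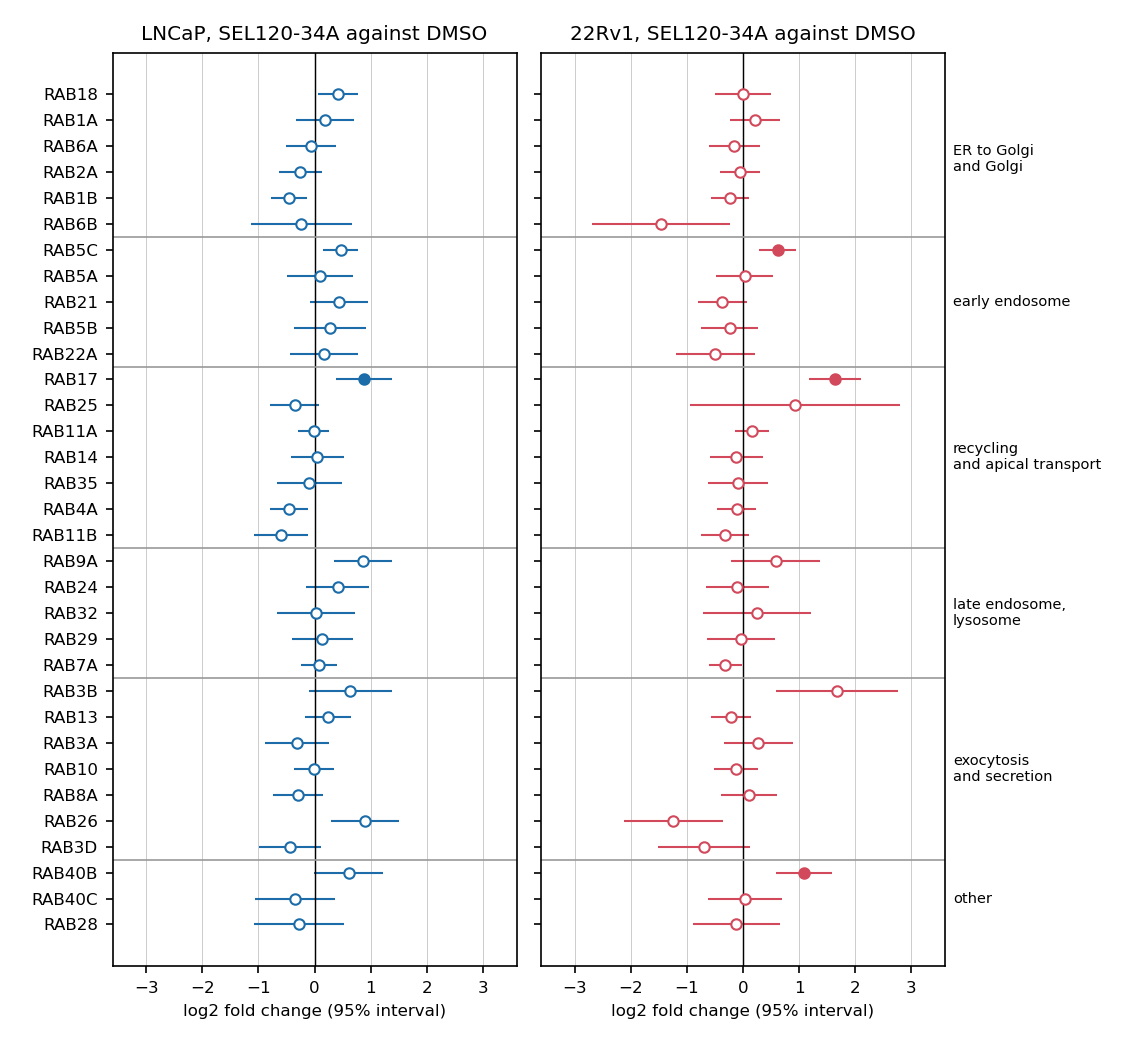
Log2 fold change (x axis) of the 33 tested Rab genes after SEL120-34A in LNCaP (left) and 22Rv1 (right) with 95% intervals, grouped by role, n = 3 libraries per arm. Filled points passed an adjusted p of 0.05: RAB17 in LNCaP, and RAB17, RAB5C and RAB40B in 22Rv1.

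By role, the calls were spread over several compartments. Of the 7 tested recycling members RAB17 rose in both lines. Of the 5 early endosome members RAB5C rose in 22Rv1 and in the average, and of the 7 exocytic members RAB3B rose in the average. Of the 3 tested members outside these classes RAB40B rose in 22Rv1 and in the average. None of the 6 members of the Golgi and early secretory pathway and none of the 5 of late endosomes and lysosomes passed the edgeR test in either line, and at an unadjusted p below 0.05 these classes held RAB1B, RAB18 and RAB9A in LNCaP, and RAB6B and RAB7A in 22Rv1.

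RAB17 (ENSG00000124839.13, chr2:237574322-237601614, minus strand) was the member called in both lines. Its DMSO libraries in 22Rv1 had 64.8, 58.0 and 53.7 CPM, and its treated libraries had 160, 288 and 120 CPM. The log2 fold change was 1.65 (SE 0.23, adjusted p 3.8e-06), and it stayed called in all 23 alternatives, at 1.28 to 1.91. The highest value came from treated replicate 2, the shallowest library of the set, with 67 counts of RAB17.

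In LNCaP RAB17 had 63.4, 49.7 and 62.9 CPM in DMSO and 101, 122 and 101 CPM after treatment. The groups did not overlap, and the log2 fold change was 0.88 (SE 0.24, adjusted p 0.0351). This call was less secure, since 9 of 23 alternatives ended it, with adjusted p from 0.0104 to 0.224 over all of them. Among these were the fits without LNCaP DMSO replicate 1 (0.0689), 2 (0.125) or 3 (0.0986) and without treated LNCaP replicate 1 (0.0909) or 2 (0.224). The response in LNCaP was smaller than that in 22Rv1 by 0.76 (95% interval −1.44 to −0.08), which did not pass over all genes (adjusted p 0.38).

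The increase changed the place of RAB17 in the family. From 58.8 CPM it reached 189 ± 87.6 CPM in treated 22Rv1, where it ranked 4 among the Rabs behind RAB5C, RAB11A and RAB7A. That rank rests on treated replicate 2, at 288 CPM, since the other treated libraries, at 160 and 120 CPM, lay below the mean of RAB4A (184 CPM). In treated LNCaP it ranked 8 at 108 ± 11.9 CPM. RAB17-DT, a transcript on the opposite strand whose exons overlap RAB17, had 0 to 27 counts per library, and whether reads were counted by strand is not given in the sources used here. In PC3 RAB17 had 34 counts in DMSO and 14 after treatment, or 37.0 and 24.5 CPM, a log2 ratio of −0.54 with a counting interval of −1.60 to 0.34 that includes 0.

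RAB40B (ENSG00000141542.11, chr17:82654973-82698698, minus strand) carries a SOCS box and can link cullin ubiquitin ligases to their targets. In 22Rv1 it had 60.9, 33.7 and 63.2 CPM in DMSO and 119, 133 and 91.3 CPM after treatment, with no overlap. The log2 fold change was 1.08 (SE 0.25, adjusted p 0.00471), and the call ended in 1 of 23 alternatives, limma (0.0655, in a range of 0.00112 to 0.0655). LNCaP gave 0.61 (95% interval −0.01 to 1.23, adjusted p 0.379), and the average response was 0.85 (adjusted p 0.00501). Its close relative RAB40C, whose exons overlap WFIKKN1 (at most 2 counts per library), gave 0.03 in 22Rv1 and −0.35 in LNCaP, so RAB40B took 58.1% ± 5.49 of the counts of the RAB40 genes in 22Rv1 DMSO libraries and 74.8% ± 5.62 in treated ones. In PC3 RAB40B had 22 and 21 counts, or 24.0 and 36.8 CPM.

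RAB5C (ENSG00000108774.15, chr17:42124978-42155044, minus strand) rose from 224, 165 and 180 CPM to 240, 335 and 297 CPM in 22Rv1. The log2 fold change was 0.62 (SE 0.17, adjusted p 0.0187), and 7 of 23 alternatives ended the call (adjusted p 0.00885 to 0.132 over all). Among them were the fits without 22Rv1 DMSO replicate 2 (0.087) or 3 (0.0929) and without treated 22Rv1 replicate 2 (0.132) or 3 (0.0556). In LNCaP it had 247, 348 and 247 CPM in DMSO and 378, 371 and 370 CPM after treatment, with no overlap. The LNCaP log2 fold change of 0.47 had an adjusted p of 0.105, which was 0.0426 without LNCaP DMSO replicate 2 and ran from 0.0426 to 0.485 over the alternatives. The average response of 0.54 (SE 0.11, adjusted p 0.00156) was called under all 22 alternatives. RAB5C became the most abundant Rab in both treated lines, at 373 ± 4.54 CPM in LNCaP and 290 ± 47.8 CPM in 22Rv1. Neither of the other RAB5 genes passed the test in either line.

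RAB3B (ENSG00000169213.7, chr1:51907956-51990700, minus strand), which acts on secretory vesicles, was called by edgeR in the average alone. Its counts in 22Rv1 were 3, 2 and 6 in DMSO and 6, 4 and 8 after treatment, from shallower libraries, and corresponded to 5.60 ± 1.73 and 18.8 ± 3.46 CPM. The log2 fold change was 1.67 in 22Rv1 (adjusted p 0.0566, from 0.0494 with limma to 0.188 over the alternatives) and 0.64 in LNCaP (adjusted p 0.461), with an average of 1.16 (SE 0.32, adjusted p 0.0231). In LNCaP the DMSO and treated libraries overlapped, at 25.4, 23.6 and 16.8 CPM against 39.0, 40.7 and 23.2 CPM. The call on the average ended in 6 of 20 alternatives (adjusted p 0.0147 to 0.0843), and in a further one, DESeq2, it had no adjusted p and so no call. The 6 were the fit with no filter on low counts (0.071) and those without LNCaP DMSO replicate 3 (0.0795), treated LNCaP replicate 1 (0.0582) or 2 (0.0839), 22Rv1 DMSO replicate 2 (0.0548) or treated 22Rv1 replicate 3 (0.0843). In PC3 RAB3B had 11 counts in DMSO and 1 after treatment.

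**Figure D5:**
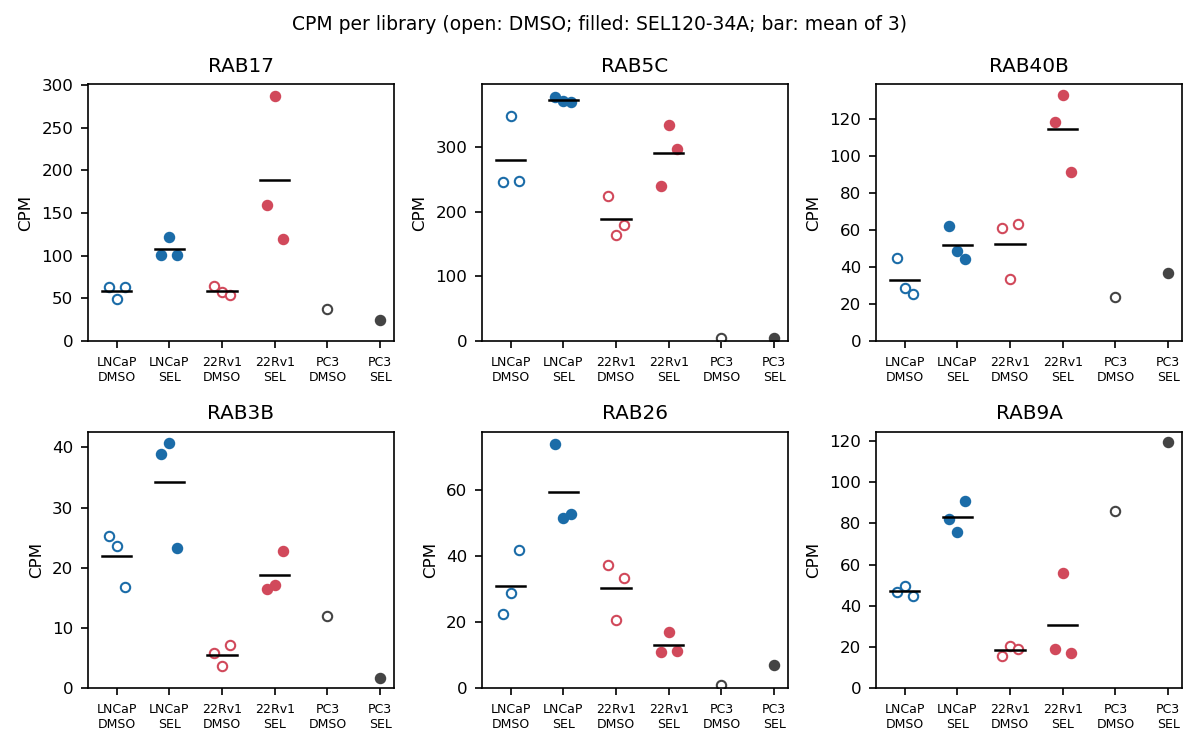
CPM of 6 Rab genes in each of the 14 libraries (open points, DMSO; filled points, SEL120-34A; bars, means of 3 libraries). RAB17, RAB5C and RAB40B rise in 22Rv1, RAB26 moves in opposite directions in LNCaP and 22Rv1, and RAB5C is close to 0 in PC3.

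RAB26 (ENSG00000167964.13, chr16:2140803-2154165, plus strand), a Rab of secretory granules, was the member whose response differed between the lines. It went from 22.5, 28.8 and 41.9 CPM to 74.1, 51.5 and 52.8 CPM in LNCaP, and from 37.3, 20.6 and 33.4 CPM to 11.0, 17.2 and 11.4 CPM in 22Rv1. The groups did not overlap in either line, and the directions were opposite. The log2 fold change was 0.90 in LNCaP (adjusted p 0.107) and −1.24 in 22Rv1 (adjusted p 0.0837), neither of which passed the test. The difference itself was 2.15 (SE 0.52, adjusted p 0.0362). It kept its sign under all 20 alternatives that could be fitted, at 1.87 to 2.50, but 10 of them ended the call (adjusted p 0.0176 to 0.159 over all). The call ended without LNCaP DMSO replicate 1 (0.103) or 2 (0.0637), treated LNCaP replicate 1 (0.111) or 2 (0.0524), 22Rv1 DMSO replicate 1 (0.0792) or 3 (0.0936), treated 22Rv1 replicate 1 (0.159), 2 (0.0645) or 3 (0.09), and with limma (0.141). DESeq2, also among the 20, gave it no adjusted p and so no call. The treated 22Rv1 values rest on 4 counts in each library.

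RAB9A (ENSG00000123595.8, chrX:13689128-13710504, plus strand) lay just outside the threshold in LNCaP. It had 46.5, 49.7 and 44.7 CPM in DMSO and 81.9, 75.9 and 90.8 CPM after treatment, with no overlap, a log2 fold change of 0.87 (SE 0.26, adjusted p 0.053). The adjusted p ran from 0.0272 to 0.391 over the alternatives and fell below 0.05 in 6 of 22, among them those without 22Rv1 DMSO replicate 2 (0.0355) or treated 22Rv1 replicate 2 (0.0272) or 3 (0.0482). In 22Rv1 treated replicate 2 stood apart at 55.8 CPM, the other treated libraries had 19.3 and 17.1 CPM, and the log2 fold change was 0.59 (adjusted p 0.449). The average response was 0.73 (adjusted p 0.0572), and it was called without treated 22Rv1 replicate 1 (0.0462) or 3 (0.0258).

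Among abundant members that did not pass, RAB1B had log2 fold changes of −0.46 in LNCaP (adjusted p 0.123) and −0.23 in 22Rv1, with an average of −0.35 (adjusted p 0.0626). It passed in the average without treated LNCaP replicate 2 (0.0324) or 22Rv1 DMSO replicate 1 (0.0436) or 2 (0.0423). With at least 10 counts in every library (−0.38, adjusted p 0.0213) or with the PC3 libraries added (−0.37, 0.0495), RAB1B passed there too. RAB11B averaged −0.45 (adjusted p 0.0835), and passed without treated replicate 1 of LNCaP (0.0449) or of 22Rv1 (0.0449). With at least 10 counts in every library it passed as well (−0.49, adjusted p 0.0394). RAB4A gave −0.45 in LNCaP (adjusted p 0.173), which became −0.65 (0.0497) without treated LNCaP replicate 3. RAB11A, the highest member in LNCaP, gave −0.01 (95% interval −0.29 to 0.26) there and 0.16 in 22Rv1. RAB10 gave −0.0042 in LNCaP (95% interval −0.36 to 0.35), and RAB7A gave −0.32 in 22Rv1 (adjusted p 0.221) with libraries that did not overlap. RAB7A was called lower in 22Rv1 with library totals alone, as above, and with at least 10 counts in every library (−0.40, adjusted p 0.0428).

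In PC3 the responses have no replicate check. Of the 40 members with at least 10 counts over both libraries, 3 lay past a 2-fold ratio, all of them lower. Over all genes 6.90% were past 2-fold, 2.60% higher and 4.30% lower. The 3 members were RAB6D, which had 14 and 1 counts in DMSO and treated cells, RAB3B with 11 and 1, and RAB8B, an exocytic Rab, with 11 and 2. Counting intervals of their log2 ratios were −8.52 to −0.40, −8.20 to 0.01 and −4.99 to 0.42. Those of RAB3B and RAB8B include 0. None of the 3 reached 20 counts, and no member with at least 20 counts was past 2-fold. RAB6D is nearly identical to RAB6C and close to RAB6A, so reads may have been split between them. The median log2 ratio of the members was −0.14, with 13 of 40 above 0, against 0.0015 over all genes. Among the 5 highest members RAB32 had a log2 ratio of 0.30 (counting interval 0.01 to 0.60), RAB34 of −0.40 (−0.75 to −0.07), RAB1B of −0.29 (−0.52 to −0.07), RAB6A of −0.05 (−0.40 to 0.29) and RAB11A of 0.12 (−0.21 to 0.45). RAB15, at 58 and 19 counts, had −0.87 (−1.75 to −0.15).

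The members too low to test were sparse in LNCaP and 22Rv1. After RAB34 with 340 counts over all libraries came RAB15 with 153, RAB23 with 111, RAB27A, which acts in the release of exosomes and granules, with 78, RAB20 with 63 and RAB8B with 57. The other 19 had between 1 and 45 counts in total. RAB27A was listed at 18.3, 13.1 and 8.39 CPM in LNCaP DMSO libraries and 23.4, 27.1 and 19.0 CPM in treated ones. These do not overlap, but rest on 24 counts in all in DMSO and 25 after treatment. Exons of RAB27A overlap PIGBOS1 on the same strand, where 3 to 19 counts per library were assigned, and reads from the overlap could fall to either gene. Apart from RAB23 by limma, no response of the members too low to test was detectable in LNCaP or 22Rv1 at this depth.

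Of 141 genes listed as Rab regulators and effectors, 47 could be tested. In LNCaP 2 of 47 rose and none fell (4.26%, against 2.77% of all genes). TBC1D16, a GTPase-activating protein, had 16, 4 and 10 counts in DMSO and 17, 18 and 16 after treatment, at 15.7 ± 6.21 and 49.6 ± 16.3 CPM (log2 fold change 1.54, adjusted p 0.0204). DENND10, of the DENN family of exchange factors, went from 20.1 ± 3.15 to 51.2 ± 15.2 CPM (1.28, adjusted p 0.028). Both calls were lost in several alternatives, with adjusted p up to 0.253 for TBC1D16 and up to 0.21 for DENND10. For TBC1D16 these included the fits without LNCaP DMSO replicate 2 (0.0822) or 3 (0.142) and treated LNCaP replicate 1 (0.182) or 2 (0.113). For DENND10 they included those without LNCaP DMSO replicate 1 (0.108), 2 (0.082) or 3 (0.0714) and treated LNCaP replicate 1 (0.204) or 2 (0.142).

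In 22Rv1 1 of the 47 fell and none rose by edgeR (2.13%, against 5.70% of all genes), with 0 higher at an unadjusted p below 0.05. DESeq2 over the same 47 genes and limma over 91 genes of the list called none higher, with 0 and 1 at an unadjusted p below 0.05, and called none lower, with 1 and 6. KIF20A, a mitotic kinesin that also binds RAB6, went from 40.4 ± 5.57 to 12.6 ± 7.63 CPM, a log2 fold change of −1.56 (adjusted p 0.0127). Its call ended without 22Rv1 DMSO replicate 3 (0.0695) or treated 22Rv1 replicate 2 (0.109) and with limma (0.0605). By edgeR, KIF20A was also the 1 of 47 called in the average response, where it was lower (2.13%, against 6.01% of all genes). Its average was −1.06 (adjusted p 0.011), its LNCaP value was −0.56 (adjusted p 0.524), and limma ended the call on the average (0.0569). The treated 22Rv1 values of KIF20A rest on 7, 1 and 5 counts. In PC3 it had 20 counts in DMSO and 27 after treatment, or 21.8 and 47.3 CPM, a rise with no replicate check. TBC1D14, listed with the GTPase-activating proteins, came next by adjusted p in 22Rv1 and did not pass (−0.67, adjusted p 0.214). In LNCaP, where none fell by edgeR, 0 were lower at an unadjusted p below 0.05. DESeq2 (47 genes) and limma (91 genes) called none in either direction there, with 0 and 2 lower and 5 and 9 higher at an unadjusted p below 0.05. The median log2 fold change over the 47 was 0.16 in LNCaP and −0.15 in 22Rv1, beside 0.0008 and 0.0025 over all genes. No regulator or effector passed the test of the difference between lines in edgeR, DESeq2 or limma, with 5 at an unadjusted p below 0.05 in edgeR and 3 in DESeq2, all more positive in LNCaP, and 5 more positive and 1 less so in limma (91 genes). In DMSO 6 of the 47 were higher in LNCaP and 10 lower (34.0%, against 49.0% of all genes).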

How the data were processed

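Gene counts of 14 BRB-seq libraries were used as deposited. The authors made these counts with STARsolo on GRCh38.p13, and the handling of molecular identifiers and of strand is not given in the sources used here. The deposited log2 CPM values, which the authors made with edgeR for 9638 genes, were recomputed from the counts within 4.97e-14 and supplied the CPM scaling and the limma alternative.

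The members, their roles and the regulator list were chosen with earlier results of these data known. Counts of the 12 LNCaP and 22Rv1 libraries were fitted with the edgeR 4.0.16 quasi-likelihood model (R 4.3.3, TMM scaling, filterByExpr, 4 group means). It tested 7086 genes with 8 residual degrees of freedom and a common biological coefficient of variation of 11.1%. Genes were called at a Benjamini-Hochberg adjusted p of 0.05 over all genes, two-sided. The average response is the mean of the contrasts in LNCaP and 22Rv1. PC3, with 1 library per arm, was not tested: its ratios use a prior count of 2 and genes with at least 10 counts. The script was tested on simulated data.

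Alternatives were DESeq2 1.42.0, limma 3.58.1, other scalings and filters, thinning to 246063 counts, a replicate block and leaving out each library. Further fits took each line alone or added the PC3 libraries. Where a range over alternatives is given, it covers those that could be fitted for that gene.

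Text names RAB17, every member called in a response comparison, the 5 highest members of each line in DMSO, the 5 largest differences between lines in each direction, the PC3 members past 2-fold and the top regulators per line. Other members named beside these, such as RAB9A under treatment, RAB15, RAB23, RAB27A, RAB11B and RAB40C, were chosen after their values were seen, and RAB6D joined its role list after the data were seen. Coordinates are those of GENCODE release 44 on GRCh38, and promoter windows come from RefSeq on GRCh38.p14.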

Additional observations from a re-analysis of the deposited data

Results flagged for a closer look

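The response of RAB26 to SEL120-34A differed between LNCaP and 22Rv1 in a test of the difference itself. The log2 fold change in LNCaP exceeded that in 22Rv1 by 2.15 (SE 0.52, adjusted p 0.0362, edgeR). The call ended in 10 of 20 alternatives, with adjusted p up to 0.159, among them 9 that left out 1 library. DESeq2, also among the 20, gave no adjusted p, and the treated 22Rv1 values rest on 4 counts in each library. All 3 treated LNCaP libraries lay above the DMSO libraries of that line, and all 3 treated 22Rv1 libraries lay below theirs.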

How the results depend on the processing

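The LNCaP count of 1 member called was 2 with each line fitted alone, and 0 with no filter on low counts, with DESeq2, with limma or at an adjusted p of 0.01. The count of 4 in the average response was 7 with library totals alone. The count of 1 in the difference between responses was 0 with at least 10 counts in every library, with libraries thinned to equal depth (in both of which RAB26 was filtered out), with DESeq2, with limma or at an adjusted p of 0.01. The count of 19 between DMSO lines was 11 in thinned libraries. For regulators and effectors, the 2 calls in LNCaP and the 1 in 22Rv1 were 0 with at least 10 counts in every library, DESeq2, limma or thinning. Their 1 call in the average was 2 with no filter and 0 under the same 4 settings, and their 16 calls between DMSO lines were 2, 10 and 4 with at least 10 counts, DESeq2 and thinning. The 3 PC3 members past 2-fold were 0 with at least 20 counts. The stricter filters leave fewer genes, and the cause of these changes was not tested. With library totals alone the family sum was 2980 CPM in LNCaP DMSO, 2873 CPM in treated LNCaP, 3192 CPM in 22Rv1 DMSO and 2960.0 CPM in treated 22Rv1.

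Leaving out 1 library gave 0 to 2 members called in LNCaP, 2 to 3 in 22Rv1, 3 to 6 in the average, 0 to 1 in the difference and 14 to 21 between DMSO lines. The DMSO difference of RAB17 of 0.04, which was not called, turned to −0.17 with library totals, −0.0125 with at least 10 counts, −0.15 with thinning and −0.0073 with limma. It ran from −0.0413 to 0.13 over the fits without 1 library.

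Of the same-numbered libraries, replicates 1 and 3 of LNCaP deviated together to some degree and the others did not (correlations of 0.17, −0.01 and 0.20 in LNCaP and −0.0027, −0.02 and 0.04 in 22Rv1). Not every library correlated best with its own number, so the numbers were not taken to pair the samples. With the replicate number as a block, shared by the lines or within each line, LNCaP had 2 members called in both fits, with RAB9A added (adjusted p 0.0494 and 0.0336), 22Rv1 had 3 in both, the average had 4 and 5, the difference had 1 in both, and the shared block gave 20 between DMSO lines. Depth limits low members most: 1 count in the shallowest library is worth 4.29 CPM.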
